A study of Mus musculus with 6 samples.

Results

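The nuclear genes of the 5 complexes of oxidative phosphorylation were followed in cells sorted from the inflamed skull vault of mice. Members were the gene names listed in the data that carry the standard stems of these subunits (Nduf with a, b, c, s or v and a number; Sdha to Sdhd; Uqcr; Cox4 to Cox8; Atp5) and had a mean of at least 1 FPKM, fragments scaled for transcript length and library size. Of 85 such names, 80 had that level, among 10865 genes with it and 23284 genes listed in all. They comprised 35 subunits of complex I, 4 of complex II, 8 of complex III, 15 of complex IV and 15 of complex V. The other 3, Atp5s, Atp5sl and Cox4nb, share a stem but encode no subunit of these complexes. Ndufa4 was placed in complex IV, where the protein is now assigned. The subunits encoded by mitochondrial DNA were not analysed here.

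All 6 libraries came from EGFP-positive cells of the calvaria of CX3CR1-EGFP mice, whose cells glow green when the locus of the fractalkine receptor CX3CR1 is active, as it is in monocytes and in precursors of osteoclasts. Every mouse had received LPS, a bacterial membrane component, into the periosteum of the calvaria, so no group without inflammation was compared. In 3 libraries the LPS was given together with 10 mg/kg CTLA4-Ig (abatacept, a fusion protein that blocks the costimulatory ligands CD80 and CD86), and in the 3 control libraries together with whole human IgG (control IgG). Cells were sorted 5 days later. The titles call the libraries biological replicates. Neither the source animals of a library nor their age is labelled, so the p-values measure the spread between these libraries.

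Complex I takes electrons from NADH and complex II from succinate, both pass them through ubiquinone to complex III, and cytochrome c carries them to complex IV, which reduces oxygen. Complexes I, III and IV pump protons out of the mitochondrial matrix, and complex V, the ATP synthase, uses their return to make ATP. Mature neutrophils are known to rely largely on glycolysis, and the formation of osteoclasts from their precursors is known to involve a rise in mitochondria.

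The sorted cells carried transcripts of more than one cell type. Cx3cr1, the gene behind the reporter, stood at 12.3 to 32.5 FPKM and Csf1r, a receptor of monocytes and macrophages, at 140 to 193 FPKM. Osteoclast markers differed in level. The fusion gene Dcstamp did not exceed 0.12 FPKM, Ocstamp 0.23, Calcr 0.032 and Atp6v0d2 0.66 FPKM. However, Acp5 read 15.7 to 27.0 FPKM and Ctsk 1.41 to 4.98 FPKM, and Tnfrsf11a had a mean of 1.71 FPKM. These 7 markers summed to 20.3 to 32.9 FPKM per library, most of it Acp5. All 16 neutrophil markers measured had a positive log2 fold change with CTLA4-Ig (15 of 16 under quantile normalization). The summed FPKM of these markers was 173639 to 240077 in the CTLA4-Ig libraries and 134172 to 153202 in the controls, and the groups did not overlap. S100a8 and S100a9, at means of 71438 and 64702 FPKM, were the largest parts of that sum. Taken singly, 10 of the 16 were higher without overlap, against 6.5% of all genes. Mmp8 and Fpr1 had their highest value in control library 1. Of 9 monocyte and macrophage markers tested, 8 had a negative and 1 a positive log2 fold change (6 and 3 under quantile normalization). The sum over the whole list of 10 was 2879 to 3024 FPKM in the CTLA4-Ig libraries and 3065 to 3087 FPKM in the controls, also without overlap. Its largest part was Ly6c2, at a mean of 2250 FPKM and a log2 fold change of -0.015. However, 0 of the 9 tested markers lay without overlap on their own. In bulk libraries fewer cells of a type and less RNA per cell cannot be told apart, and the part of cell mixture in the values below was not tested. From the steps between low values, the depth was estimated at 8890000 to 10920000 fragments per library in the authors' scaling. At that depth the median member was backed by about 1236 fragments per library, and 74 of the 80 members by at least 100 in every library.

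The stretches before the starts of these genes were searched for sequences through which nuclear factors are known to reach respiratory genes. Such factors include nuclear respiratory factor 1 (NRF1), the ETS family factor GABP and YY1. RefSeq (GRCm38.p6) gave the 250 bases before the start for 67 of the 80 members. The 10-base NRF1 palindrome stood on either strand in 4 of them (5.97%), against 0.877% of all 27025 genes with such a sequence and 2.08% of the 7835 of them tested here. The 4 are shown because they carry the full palindrome, in capitals as are TGCGCA and CCGGAAG or its reverse complement, 5′ to 3′ on the gene's own strand.

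Ndufa11 (chr17:56717512-56717761, forward strand): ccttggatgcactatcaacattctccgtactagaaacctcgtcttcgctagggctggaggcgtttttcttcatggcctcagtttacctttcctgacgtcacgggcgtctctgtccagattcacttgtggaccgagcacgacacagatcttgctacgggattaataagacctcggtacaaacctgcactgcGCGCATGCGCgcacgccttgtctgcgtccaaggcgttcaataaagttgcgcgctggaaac
Cox6a1 (chr5:115348959-115349208, reverse strand): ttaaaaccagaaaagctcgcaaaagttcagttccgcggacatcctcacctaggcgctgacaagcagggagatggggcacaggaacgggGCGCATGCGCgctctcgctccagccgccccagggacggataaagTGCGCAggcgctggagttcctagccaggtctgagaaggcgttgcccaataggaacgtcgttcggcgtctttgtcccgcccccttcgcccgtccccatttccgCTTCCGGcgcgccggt
Atp5k (chr5:108434400-108434649, reverse strand): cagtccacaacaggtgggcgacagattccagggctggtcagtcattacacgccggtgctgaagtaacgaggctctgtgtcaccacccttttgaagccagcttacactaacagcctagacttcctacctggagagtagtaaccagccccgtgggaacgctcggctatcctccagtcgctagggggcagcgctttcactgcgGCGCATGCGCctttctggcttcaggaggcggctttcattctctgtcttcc
Atp5g2 (chr15:102671048-102671297, reverse strand): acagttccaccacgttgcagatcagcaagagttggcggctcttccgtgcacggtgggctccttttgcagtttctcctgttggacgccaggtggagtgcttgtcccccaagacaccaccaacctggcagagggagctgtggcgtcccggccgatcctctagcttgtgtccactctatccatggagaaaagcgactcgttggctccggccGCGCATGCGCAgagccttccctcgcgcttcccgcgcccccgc

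In Atp5g2 the shorter NRF1 core TGCGCA overlaps the palindrome, and in Cox6a1 a separate TGCGCA lies downstream of it. TGCGCA on either strand was found in 14 members (20.9%), against 7.36% of all genes and 13.9% of the tested genes. The ETS motif CCGGAAG was found in 12 members (17.9%), against 7.83% of all genes but 17.0% of the tested genes, so the members' share was close to that of other genes used in these cells. The YY1 motif AAGATGGCG was found in Atp5j and Atp5sl, 2.99% of members against 1.54% of the tested genes. TATAAA was found in 5 members (7.46%), against 14.3% of all genes and 7.36% of the tested genes. These are matches of letters in a window, not sites of binding, and the 4 members with the palindrome gave log2 fold changes of 0.05 (Ndufa11), 0.09 (Cox6a1), -0.09 (Atp5k) and -0.02 (Atp5g2) with CTLA4-Ig, each with a 95% interval that holds 0.

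No member passed the test between CTLA4-Ig and control IgG. On log2(FPKM + 1) with limma and Benjamini-Hochberg adjustment over all 10865 genes, 0 of 80 members had an adjusted p under 0.05, as did 0 of all genes (0%), and the smallest adjusted p among members was 0.759. By limma's unadjusted p under 0.05, 2 members were higher with CTLA4-Ig (Ndufb7 and Ndufa13) and 2 lower (Ndufb2 and Ndufa10). All genes gave 6.07% by this rule, 4.09% higher and 1.98% lower, so 4 of 80 is near the background. The 3 libraries of one group all lay above or below the 3 of the other for 9 members, 3 higher (Ndufb7, Ndufa13 and Cox6b1) and 6 lower (Ndufb2, Ndufa10, Uqcr11, Atp5b, Atp5g3 and Atp5g1). That share too is near the background of 12.2% of all genes, of which 6.5% were higher and 5.69% lower.

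The members' fold changes were small and measured with a narrow error. Of 80 members 27 had a positive and 53 a negative log2 fold change, where 52.3% of all genes tested were negative. The median was -0.026 in the members and -0.006 in all genes, and without CTLA4-Ig library 2 the members' median turned to 0.0042. The median 95% interval reached 0.163 to either side in the members and 0.226 in all genes. Apart from Ndufs5, Cox6a2, Cox7a1 and Atp5s, the intervals of the members reached at most -0.42 (Ndufa10) and 0.42 (Ndufa12).

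**Figure D1:**
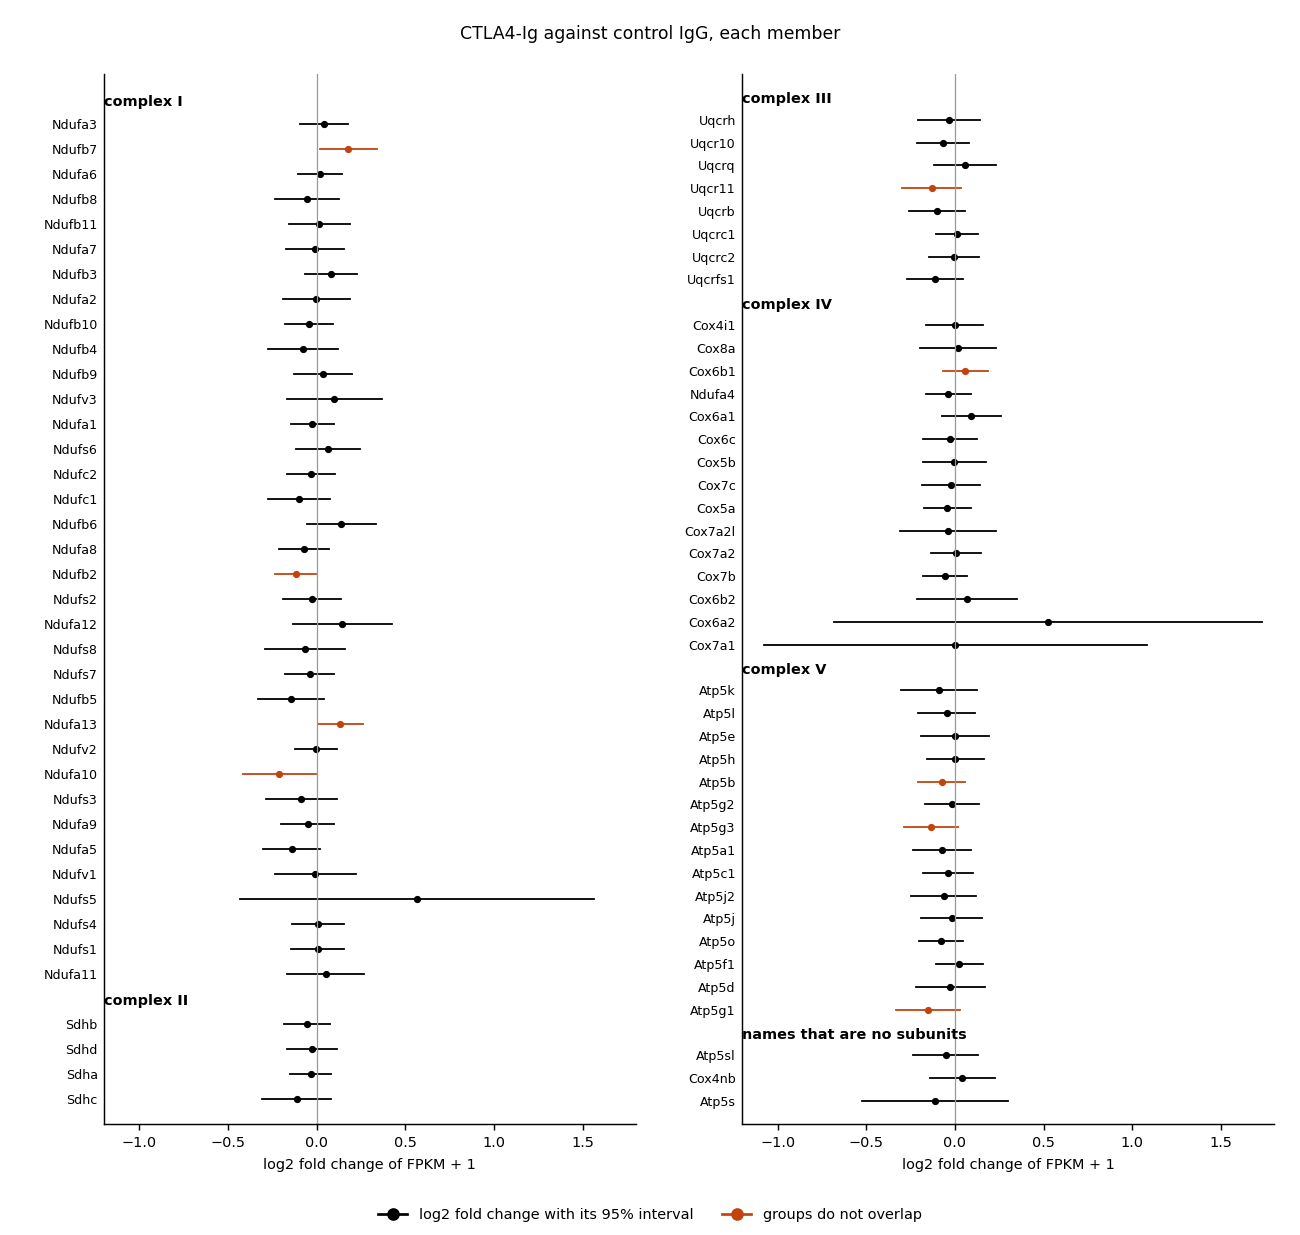
Log2 fold change of FPKM + 1, CTLA4-Ig against control IgG, for each of the 80 members by complex, with limma's 95% interval as the line and colour for the 9 members whose groups did not overlap. Most points lie close to 0, and Ndufs5, Cox6a2 and Cox7a1 have the widest intervals.

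The 4 subunits of complex I with an unadjusted p under 0.05 all belong to its supernumerary subunits, which surround the catalytic core. Ndufb7, a subunit on the intermembrane side of the membrane arm (chromosome 8, 83566758 to 83571623, GRCm38), stood at 274, 280 and 261 FPKM in CTLA4-Ig libraries 1 to 3 and at 245, 223 and 253 FPKM in control libraries 1 to 3. All 3 CTLA4-Ig values lay above all 3 control values. The log2 fold change was 0.18 (95% interval 0.019 to 0.34, SE 0.067, limma adjusted p = 0.759). Ndufa13, also known as GRIM-19 (chromosome 8, 69894163 to 69902558), read 84.95, 81.5 and 82.2 FPKM with CTLA4-Ig and 73.1, 74.8 and 78.6 FPKM with control IgG, again without overlap. Its group means were 82.9 ± 1.81 and 75.5 ± 2.81 FPKM (SD, n = 3). The log2 fold change was 0.13 (limma adjusted p = 0.794). Ndufa13 overlaps the coding gene Tssk6, and whether counting used the strand is not given in the sources used here.

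Ndufb2 and Ndufa10 lay on the other side. Ndufb2, a small subunit of the membrane arm (chromosome 6, 39592565 to 39599843), read 99.4, 96.9 and 101 FPKM with CTLA4-Ig and 108, 106 and 109 FPKM with control IgG. Its log2 fold change was -0.12 (95% interval -0.23 to -0.0043, limma adjusted p = 0.807). Ndufa10, an accessory subunit related to nucleoside kinases (chromosome 1, 92439486 to 92473825), read 61.8, 54.0 and 63.1 FPKM with CTLA4-Ig and 75.7, 66.0 and 65.6 FPKM with control IgG. Its groups did not overlap, and its log2 fold change of -0.21 was the most negative of the 80 members (SE 0.087, limma adjusted p = 0.81).

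The whole of complex I had 15 positive and 20 negative log2 fold changes, with a median of -0.008, which turned to 0.018 when CTLA4-Ig library 2 was left out and to 0.0063 when control library 1 was. The subunits at the entry of its electron path stood nearly level. Ndufv1, which binds NADH and the first flavin, had a mean of 47.2 ± 2.91 FPKM under CTLA4-Ig and of 47.7 ± 5.86 FPKM in the controls (SD, n = 3). Ndufs1, the large iron-sulfur subunit next to it, stood at 31.1 ± 1.33 and 31.0 ± 1.47 FPKM. Their 95% intervals of the log2 fold change were -0.24 to 0.22 for Ndufv1 and -0.14 to 0.15 for Ndufs1. Levels within the complex spanned from Ndufa11, a membrane-arm subunit with a mean of 15.3 FPKM, to Ndufa3, another accessory subunit, with 426 FPKM, around a median of 106 FPKM.

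Complex II, succinate dehydrogenase, belongs to both the respiratory chain and the TCA cycle. All 4 of its subunits had a negative log2 fold change, with a median of -0.044, and the groups of each overlapped. The flavoprotein Sdha read 82.6, 84.3 and 80.4 FPKM with CTLA4-Ig and 84.5, 83.1 and 85.6 FPKM with control IgG. Its fold between the highest and the lowest library was 1.07, among the smallest of all members. The iron-sulfur subunit Sdhb stood at 116 ± 3.72 and 120.5 ± 4.57 FPKM. Of the membrane anchors, Sdhd gave a log2 fold change of -0.027 and Sdhc of -0.11 (95% interval -0.31 to 0.083, limma adjusted p = 0.894). Sdhc read 69.0, 70.5 and 80.9 FPKM with CTLA4-Ig and 85.3, 78.6 and 74.6 FPKM with control IgG, so CTLA4-Ig library 3 lay within the control range.

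Complex III, cytochrome bc1, had 6 negative and 2 positive log2 fold changes and a median of -0.050. Uqcr11, a small subunit of its membrane part (chromosome 10, 80402997 to 80406821), read 225, 202 and 222 FPKM with CTLA4-Ig and 253, 229 and 229 FPKM with control IgG. The groups did not overlap, and the log2 fold change was -0.13 (95% interval -0.30 to 0.037, limma adjusted p = 0.864). The Rieske iron-sulfur protein Uqcrfs1 gave -0.11, with 85.7, 77.8 and 85.4 FPKM with CTLA4-Ig and 94.4, 84.7 and 89.8 FPKM with control IgG. Its groups overlapped, since control library 2 lay below CTLA4-Ig libraries 1 and 3. The core proteins stood nearly level, Uqcrc1 at 119 ± 3.13 against 118 ± 1.93 FPKM and Uqcrc2 at 87.6 ± 4.45 against 87.8 ± 2.73 FPKM. Uqcrb, a small subunit known as the ubiquinone-binding protein, gave -0.10, and 3 pseudogenes are near copies of its transcript. The 2 members of complex III with the highest level were the hinge protein Uqcrh, at 356 ± 28.0 against 364 ± 14.0 FPKM, and the small subunit Uqcr10, at 265 ± 13.4 against 277 ± 10.4 FPKM. The median of complex III was -0.102 without CTLA4-Ig library 3 and -0.019 without CTLA4-Ig library 2, and -0.087 under quantile normalization.

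Complex IV, cytochrome c oxidase, had 7 positive and 8 negative log2 fold changes and a median of -0.001, which is that of Cox4i1 and turned to 0.000047 after rescaling by the median of ratios, 0.026 with CTLA4-Ig library 2 left out and 0.041 with control library 1 left out. Cox6b1, a subunit on the intermembrane side (chromosome 7, 30616971 to 30626114), read 451, 455 and 460 FPKM with CTLA4-Ig and 449, 426 and 437 FPKM with control IgG. The groups did not overlap by a narrow margin, and the log2 fold change was 0.06 (95% interval -0.070 to 0.19, limma adjusted p = 0.909). Cox4i1, the largest nuclear subunit, had the highest mean of all members at 540 FPKM. Its group means were 540 ± 17.7 under CTLA4-Ig and 541 ± 31.2 in the controls. Cox8a, a small membrane subunit, came next among complex IV members at 471 ± 16.7 against 467 ± 50.7 FPKM, and Cox7b, another, gave a log2 fold change of -0.057 at 122 ± 2.02 against 127 ± 4.78 FPKM. The subunits at the matrix side, Cox5a and Cox5b, gave log2 fold changes of -0.042 and -0.0033, and Ndufa4 gave -0.037 at 402 ± 6.17 against 413 ± 10.8 FPKM.

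The subunits of complex IV that come in tissue isoforms were listed almost wholly as the general forms. Cox4i1 made up 99.9% of the summed FPKM of Cox4i1 and the hypoxia-linked form Cox4i2. Cox4i2 was the name just below the minimum level, at a mean of 0.68 FPKM and 0.19 to 1.02 in the libraries. The testis forms Cox7b2 and Cox8c, the muscle form Cox8b and the Ndufa4 relative Ndufa4l2 were listed at 0 in all 6 libraries. The general form Cox6a1 made up 95.1% of its pair and Cox6b1 94.03%, where the partners are the muscle form Cox6a2 and the testis form Cox6b2. Cox7a2 and Cox7a2l, a protein that joins complexes III and IV into supercomplexes, shared their family at 44.2% and 55.2%, and the muscle form Cox7a1 held 0.594%. Cox7a1, at a mean of 2.46 FPKM, and Atp5s, at 2.49 FPKM, were the members just above the minimum.

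Complex V, the ATP synthase, had 13 of 15 log2 fold changes negative and a median of -0.046 (12 of 15 negative after rescaling by the median of ratios). Atp5b, the catalytic beta subunit (chromosome 10, 128083307 to 128090388), read 467, 465 and 472 FPKM with CTLA4-Ig and 512, 481 and 485 FPKM with control IgG. All CTLA4-Ig values lay below all control values, and the log2 fold change was -0.074 (95% interval -0.21 to 0.059, limma adjusted p = 0.899). Its partner in the catalytic head, the alpha subunit Atp5a1, read 290, 284 and 305 FPKM against 332, 294 and 298 FPKM, with overlap. Atp5o, the stalk protein that holds the head to the membrane part, gave -0.080 at 210 ± 4.86 against 222 ± 5.7 FPKM. Atp5d, the delta subunit of the central stalk, stood at 173 ± 3.44 against 177 ± 18.8 FPKM. The median of complex V was -0.072 without CTLA4-Ig library 3 and -0.024 without CTLA4-Ig library 2.

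The 3 genes Atp5g1, Atp5g2 and Atp5g3 encode the c subunit of the proton-driven ring, with different targeting peptides and the same mature protein. Atp5g1 (chromosome 11, 96072793 to 96075694) read 104, 104 and 98.7 FPKM with CTLA4-Ig and 126, 108 and 108 FPKM with control IgG. Atp5g3 (chromosome 2, 73908447 to 73912464) read 305, 292 and 294 FPKM with CTLA4-Ig and 350, 319 and 311 FPKM with control IgG. Neither overlapped between the groups. The log2 fold changes were -0.15 for Atp5g1 (limma adjusted p = 0.851) and -0.14 for Atp5g3 (limma adjusted p = 0.848), and in both control library 1 was the highest. Atp5g2 read 335, 314 and 348 FPKM against 337, 349 and 323 FPKM, with a log2 fold change of -0.017. Atp5g2 made up 44.4% of the 3 genes' summed FPKM, Atp5g3 41.3% and Atp5g1 14.3%. These shares are uncertain, since the transcript of Atp5g2 has 2 near copies among other annotated genes, and those of Atp5g1 and Atp5g3 have 0. The difference between Atp5g2 and the other two was not tested.

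Among the promoters of the 9 members without overlap, 3 held the ETS motif in the last 120 bases before the start, and these are shown with CCGGAAG or its reverse complement in capitals. The share over all genes was not counted for a window of 120 bases.

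Ndufb7 (chr8:83566638-83566757, forward strand): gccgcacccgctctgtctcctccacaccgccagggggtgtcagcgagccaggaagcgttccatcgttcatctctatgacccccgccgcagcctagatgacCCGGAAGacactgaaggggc
Cox6b1 (chr7:30626115-30626234, reverse strand): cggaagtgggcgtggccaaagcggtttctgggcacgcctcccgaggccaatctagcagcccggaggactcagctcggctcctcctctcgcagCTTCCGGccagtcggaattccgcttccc
Uqcr11 (chr10:80406822-80406941, reverse strand): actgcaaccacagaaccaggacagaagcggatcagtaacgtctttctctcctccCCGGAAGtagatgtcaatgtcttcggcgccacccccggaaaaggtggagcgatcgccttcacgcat

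Ndufb7 and Cox6b1 were higher and Uqcr11 lower with CTLA4-Ig, so the members shown here lay on both sides. The other 6 promoters held none of the NRF1, ETS and YY1 motifs in those 120 bases.

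**Figure D2:**
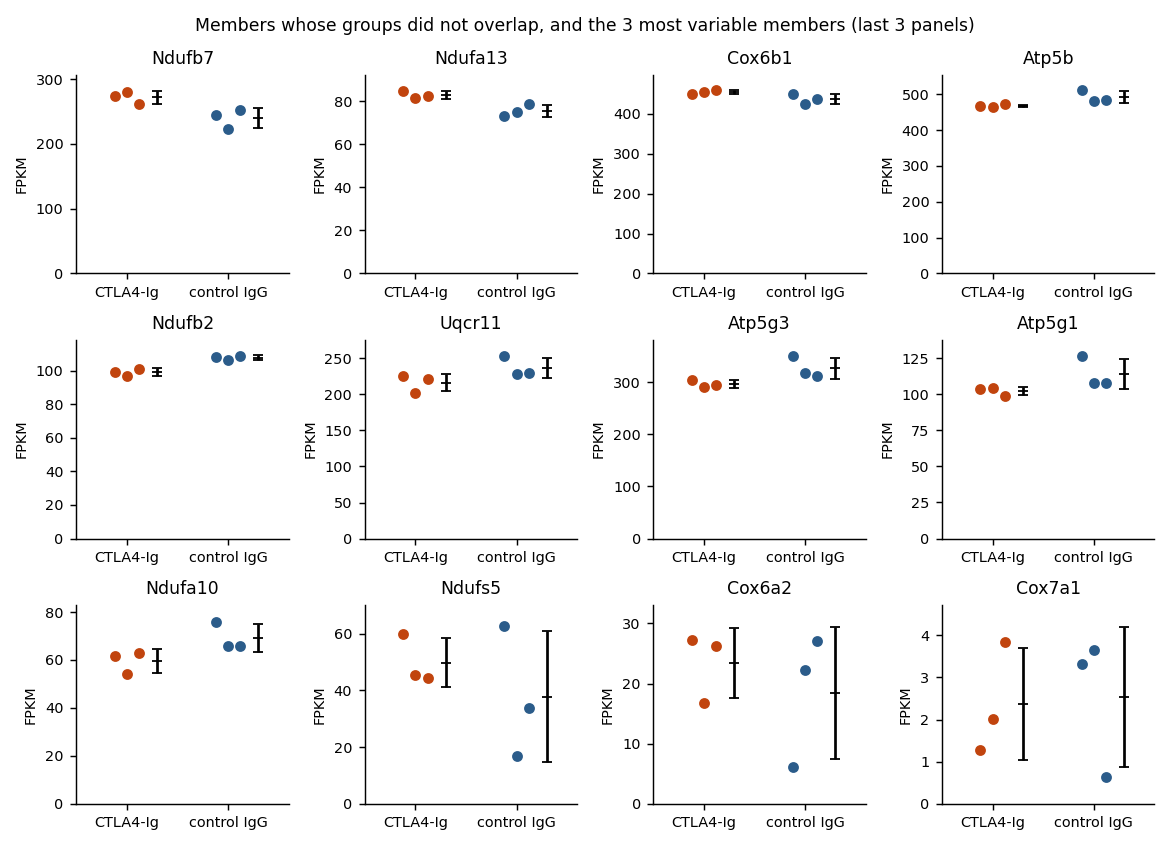
FPKM in each library for the 9 members whose groups did not overlap and, in the last 3 panels, the 3 most variable members. Points are libraries 1 to 3 of each group from left to right, with the mean and SD beside them. The gaps between the groups in the first 9 panels are small beside the level, and Ndufs5, Cox6a2 and Cox7a1 vary widely within a group.

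The members were steady between libraries. The median fold between a member's highest and lowest library was 1.16, and 76 of 80 stayed under 1.5-fold. Ndufv2, an iron-sulfur subunit of complex I, was the steadiest at 1.04-fold, between 64.1 and 66.8 FPKM. The median residual SD on the log2 scale was 0.078 in the members and 0.115 in all genes tested, which also have lower levels.

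Ndufs5, Cox6a2 and Cox7a1 departed from this. Ndufs5, an accessory subunit of complex I (chromosome 4, 123712710 to 123718186), read 59.8, 45.4 and 44.4 FPKM with CTLA4-Ig and 62.6, 16.9 and 33.7 FPKM with control IgG, a 3.71-fold range. The spread lay mainly within the control group, and the log2 fold change of 0.57 had a 95% interval of -0.43 to 1.57. Even the lowest library was backed by about 99.5 fragments. The pseudogene BC002163, a near copy of its transcript, was listed at no more than 1.09 FPKM, and how fragments were shared between such copies is not given in the sources used here.

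Cox6a2, the muscle form (chromosome 7, 128205435 to 128206366), read 27.3, 16.7 and 26.3 FPKM with CTLA4-Ig and 6.05, 22.3 and 27.0 FPKM with control IgG. Control library 1 alone stood far below, on about 37.4 fragments, and without it the log2 fold change went from 0.52 to -0.095. The same library held the lowest sum of erythroid markers, at 7.76 FPKM against 72.2 to 120 in the other 5, and the lowest of stromal markers, at 3.48 against 7.47 to 16.0 FPKM. Muscle markers summed to 1.49 FPKM there and 0.60 to 1.31 elsewhere, with Myh4 at 0 in every library. The dendritic marker Siglech read 26.3, 18.6 and 26.7 FPKM with CTLA4-Ig and 16.0, 27.7 and 26.8 FPKM with control IgG. Like Cox6a2, it was lowest in control library 1 and next lowest in CTLA4-Ig library 2. Of the other dendritic markers, Cd209a was lowest in control library 1, at 4.69 FPKM. Flt3 and Xcr1 were highest there, at 46.6 and 0.84 FPKM. The gene overlaps Itgad, which was listed at no more than 0.62 FPKM. The part of any of these in the low value was not tested. Cox7a1 read 1.27, 2.02 and 3.85 FPKM with CTLA4-Ig and 3.32, 3.66 and 0.64 FPKM with control IgG, on about 10.5 fragments in the median library, which leaves a 95% interval of -1.08 to 1.09.

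**Figure D3:**
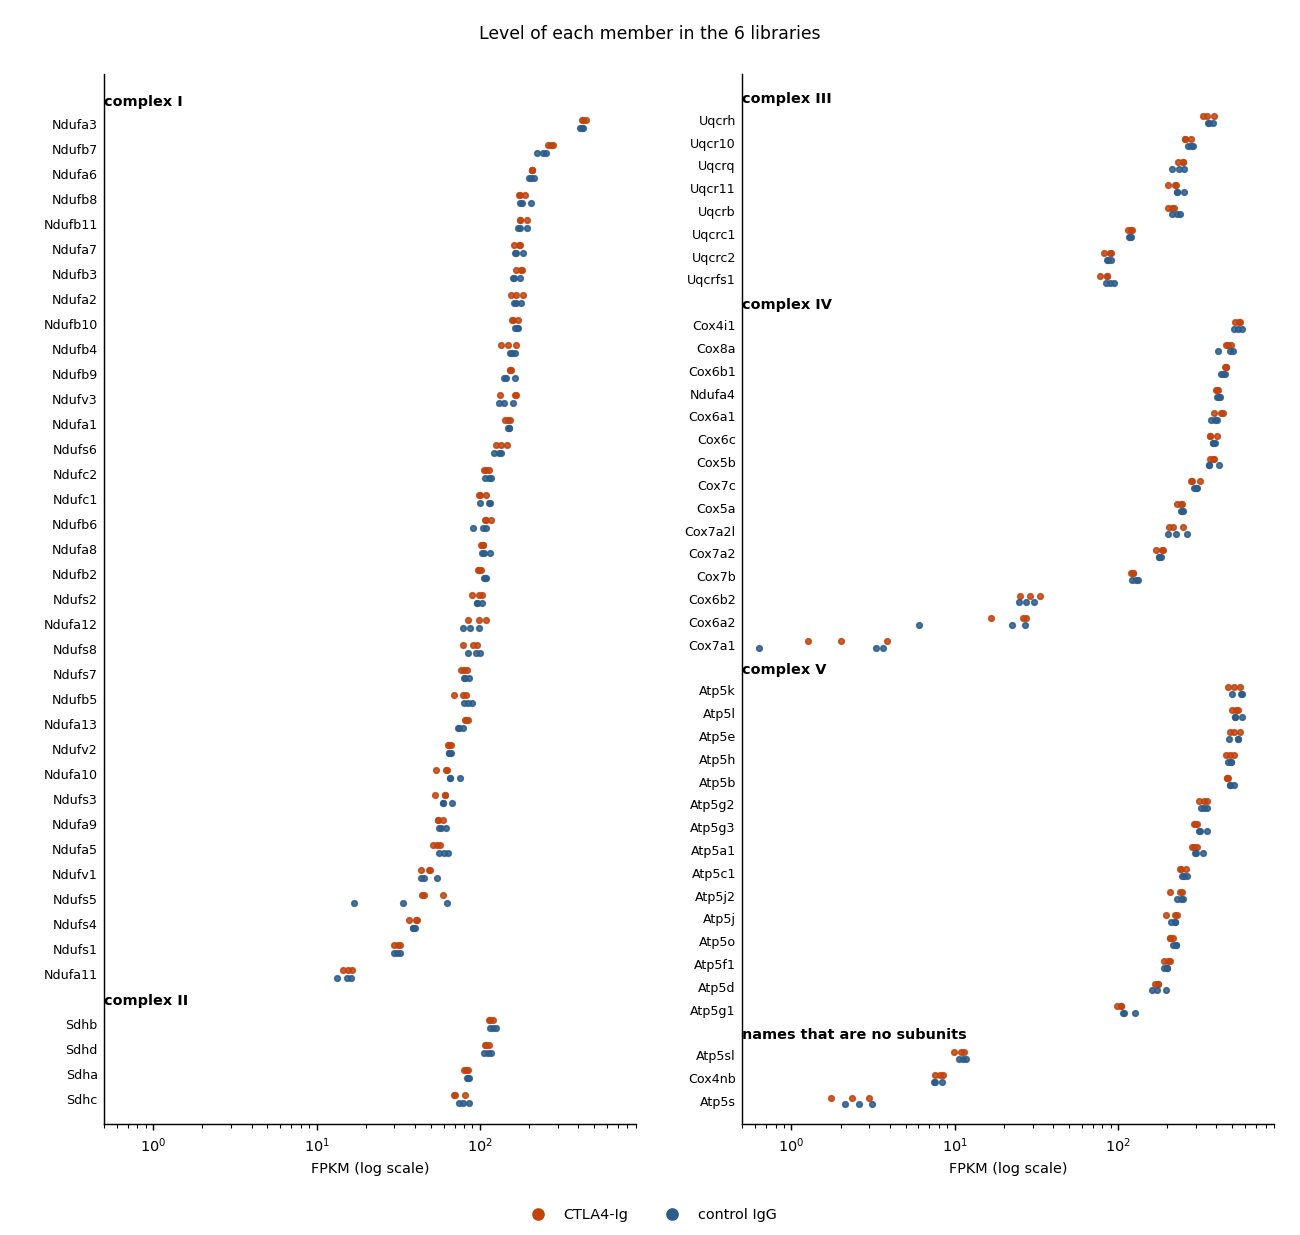
FPKM of each member on a log axis, by complex and ordered by mean, with a point for each of the 3 CTLA4-Ig and 3 control IgG libraries. The 6 points of most members lie close together, while the members themselves span from Cox7a1 at a mean of 2.46 to Cox4i1 at 540 FPKM.

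Levels per transcript length differed between the complexes. The median member stood at 106 FPKM in complex I, 97.2 in complex II, 224 in complex III, 296 in complex IV and 300.5 in complex V. Within complex V the levels spanned from Atp5g1 at 108 FPKM to Atp5k, the e subunit, at 529 FPKM. In complex IV, Cox6b2, Cox6a2 and Cox7a1 stood below the other 12 members, all of which exceeded 100 FPKM in every library. Of the 80 members, 11 had a near copy among the annotated transcripts of other genes (at least 95% identity over at least 50% of the transcript). Among them was Atp5l, the g subunit, with 9. The levels of these 11 are uncertain, and copies outside the annotation were not searched. The 3 names that are no subunits had the lowest median, 7.94 FPKM, though the subunit Cox7a1, at a mean of 2.46 FPKM, lay below each of them.

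The same libraries held the low and the high values of many members. CTLA4-Ig library 2 held the lowest value of 31 members and control library 1 the highest of 30. The same count was not made over all genes, so it cannot be read as particular to the members. The mean log2 level over all members was 7.02, 6.96 and 7.05 in CTLA4-Ig libraries 1 to 3 and 7.05, 6.996 and 7.005 in control libraries 1 to 3. These means lie within 1.07-fold of each other and the groups overlap.

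As a description over 6 libraries, the mean of complex III had a Pearson correlation of 0.95 with that of complex V and 0.60 with that of complex I, and complex IV correlated with the others at 0.18 to 0.33. Single members were less alike. Taken as deviations from the group means, their median pairwise correlation was 0.20, and 62.0% of pairs were positive. Within a complex that median ran from 0.012 in complex II to 0.195 in complex III, with 0.080 in complex V. Leaving Ndufs5, Cox6a2 and Cox7a1 out, which was chosen after their values were seen, the correlation of complexes I and IV went from 0.30 to 0.98. Complexes I, III, IV and V then all had their lowest mean in CTLA4-Ig library 2 and their highest in control library 1. The libraries' scaling is shared by all members, so these correlations carry it. The difference of the mean between groups was then -0.0092 in complex I, -0.057 in complex II, -0.047 in complex III, 0.0012 in complex IV and -0.053 in complex V on the log2 scale.

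**Figure D4:**
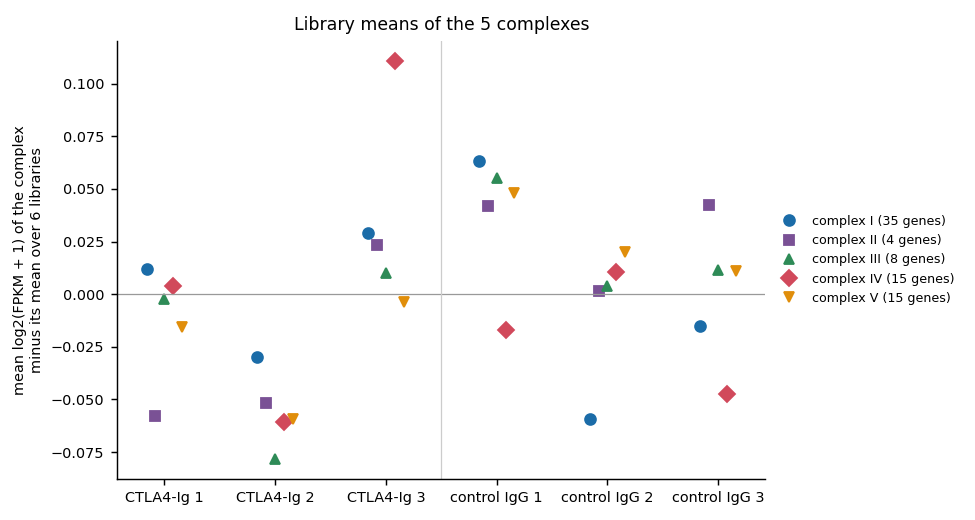
Mean log2(FPKM + 1) of each complex in each library, minus the mean of that complex over the 6 libraries, with all members included. Complexes III and V run in parallel with a low in CTLA4-Ig library 2 and a high in control library 1. Complex IV, which holds Cox6a2 and Cox7a1, departs from them in CTLA4-Ig library 3, control library 1 and control library 3.

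The members' share of the summed FPKM was 1.98, 1.74 and 1.85% in CTLA4-Ig libraries 1 to 3 and 2.07, 2.02 and 2.10% in control libraries 1 to 3, without overlap. That sum itself was 770271, 851706 and 837942 in the CTLA4-Ig libraries and 759683, 748848 and 726358 in the controls, also without overlap. A share depends on the sum as well, so a lower share is not by itself a lower level of the members. Their mean log2 levels, given above, overlapped. S100a8 and S100a9, calcium-binding proteins of neutrophils and monocytes, took 17.1, 21.9 and 19.995% of the sum in the CTLA4-Ig libraries and 14.2, 15.9 and 14.4% in the controls. With these 2 genes left out of the sum the members' share was 2.39, 2.22 and 2.31% in the CTLA4-Ig libraries and 2.41, 2.40 and 2.46% in the controls. The groups still did not overlap, but the gap between CTLA4-Ig library 1 and control library 2 narrowed from 1.98 against 2.02% to 2.39 against 2.40%.

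Genes around the complexes were taken from lists, and none of their genes passed the test over all genes by limma's adjusted p. By its unadjusted p under 0.05, 5 of 22 glycolysis genes were higher and 0 lower. Of 46 assembly factors 2 were higher and 1 lower, and of 9 antioxidant genes 1 was higher and 1 lower. In the TCA cycle list 1 of 20 genes was lower, and in the regulator list 1 of 19. All genes tested gave 4.09% higher and 1.98% lower by this rule. Of 7 genes of cytochrome c and subunits outside the name rule, 6 were negative, with Cycs, cytochrome c itself, at 55.2 ± 1.15 against 59.4 ± 7.76 FPKM and Ndufab1, the acyl carrier protein of complex I, at 51.3 ± 3.44 against 54.1 ± 3.99 FPKM. Of 46 assembly factors 17 were positive and 29 negative, with a median of -0.031. Sdhaf4, an assembly factor of complex II listed as 1110058L19Rik, read 16.8, 16.0 and 16.9 FPKM with CTLA4-Ig and 10.8, 14.9 and 14.1 FPKM with control IgG, without overlap (log2 fold change 0.31, limma adjusted p = 0.762). Pet117, a complex IV assembly factor listed as Gm20571, read 6.74, 3.56 and 2.54 FPKM with CTLA4-Ig and was listed at 0, 0 and 3.61 FPKM with control IgG.

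Of 20 genes of the TCA cycle and pyruvate entry 16 were negative, with a median of -0.052. Citrate synthase, Cs, the entry enzyme of the cycle, read 84.9, 82.6 and 81.2 FPKM with CTLA4-Ig and 95.4, 90.6 and 90.0 FPKM with control IgG. All CTLA4-Ig values lay below the control values (log2 fold change -0.15, limma adjusted p = 0.744). Idh3a, a subunit of isocitrate dehydrogenase, gave -0.14. Of 8 carriers and uncoupling genes 7 were negative, with Slc25a5, an ADP/ATP carrier that passes the ATP of complex V to the cytosol, at 448 ± 23.0 against 503 ± 29.7 FPKM, and its relative Slc25a4 at 64.7 ± 4.16 against 73.3 ± 9.8 FPKM.

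Among 19 regulators of mitochondrial transcription and biogenesis, 13 were negative. Myc, a transcription factor whose targets include mitochondrial and ribosomal genes, read 23.2, 26.4 and 22.7 FPKM with CTLA4-Ig and 29.5, 29.0 and 27.2 FPKM with control IgG, without overlap (log2 fold change -0.24, limma adjusted p = 0.72). Polg2, the accessory subunit of the mitochondrial DNA polymerase, gave -0.24 at 4.55 ± 0.304 against 5.58 ± 0.783 FPKM. Of 9 mitochondrial antioxidant genes 4 were positive and 5 negative. The peroxiredoxins Prdx5 and Prdx3 lay on opposite sides, Prdx5 at 1253 ± 120 against 999 ± 46.9 FPKM and Prdx3 at 42.3 ± 1.16 against 47.9 ± 2.18 FPKM, both without overlap.

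Glycolysis was the list with the opposite sign. Of its 22 genes 16 were positive, with a median of 0.041. All CTLA4-Ig libraries lay above all control libraries for 6 of the 22, against 6.5% of all genes tested. The glucose transporter Slc2a3 read 35.4, 43.7 and 38.4 FPKM with CTLA4-Ig and 31.6, 26.0 and 22.1 FPKM with control IgG (log2 fold change 0.55, limma adjusted p = 0.72). Slc16a3, a lactate exporter, stood at 46.0 ± 1.68 against 38.8 ± 2.0 FPKM. The neutrophil markers moved to the same side, with a median log2 fold change of 0.537 over 16 genes, and their part in the glycolysis values was not tested.

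**Figure D5:**
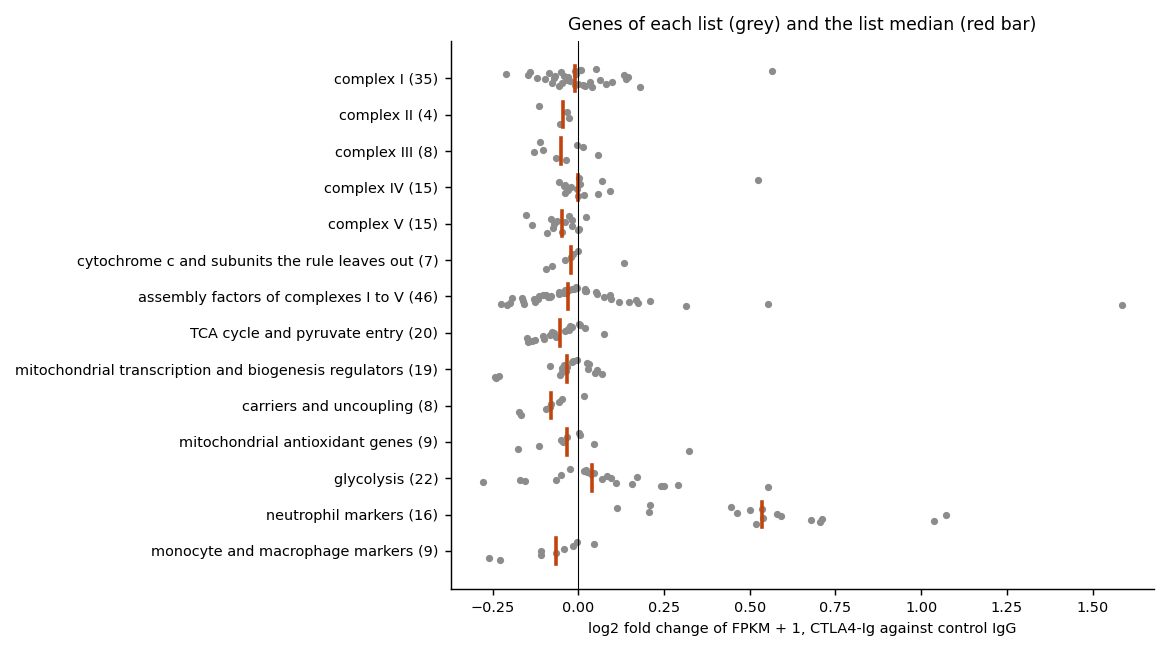
Log2 fold change of FPKM + 1, CTLA4-Ig against control IgG, of each gene (grey) and the median (red bar) for the 5 complexes, the lists around them and 2 lists of cell type markers, with the number of genes in brackets. The medians of the complexes lie between -0.050 and -0.001, that of glycolysis at 0.041 and that of neutrophil markers at 0.537.

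Ribosomal proteins, another large group of steadily used genes, had medians on the same side as the respiratory members. Of 94 genes of cytosolic ribosomal proteins 81 were negative with a median of -0.080, and of 76 of mitochondrial ribosomal proteins 56 with a median of -0.049, beside -0.026 in the 80 members. Their mean log2 levels also had the lowest value in CTLA4-Ig library 2 (9.01 and 4.92) and the highest in control library 1 (9.29 and 5.04), the same libraries as the low and high of the respiratory members. The neutrophil markers had their highest mean log2 level, 10.1, in CTLA4-Ig library 2, and the part of that library's cell mixture in the low values was not tested.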

How the data were processed

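The samples were 6 RNA-seq libraries, grouped by the treatment label and numbered by their titles. Per the labels' protocols, total RNA came from a miRNeasy kit and the library kit was TruSeq stranded mRNA. The submitters' processing notes name build mm10, Cuffnorm 2.2.1, TopHat2 2.0.13, SAMtools 0.1.19 and Bowtie2 2.2.3. Settings, annotation and the use of strand were not given in the sources used here. Deposited values are FPKM, 1 per gene and library, as scaled by the authors. They hold no read numbers. Depth was estimated from the spacing of low values, of which 57.9 to 65.0% lay within 0.1 of whole fragments, so no test of rebuilt reads was run.

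Log2(FPKM + 1) was tested in R 4.3.3 using limma 3.58.1 (lmFit, then eBayes with a trend, 1 factor, two-sided) on genes whose mean reached 1 FPKM, with Benjamini-Hochberg adjustment over all of them and a threshold of 0.05. The fit was checked on simulated data whose differences were larger than those of any member. That check does not show whether differences as small as the members' would be found. Lists and complexes are described by counts and medians, without a list test. The members and lists were chosen with earlier results of these data known. Of 240 list names 210 were matched, 23 through an older symbol in RefSeq. For each complex the text names the members without overlap between groups, the 3 with the smallest unadjusted p, the 2 highest, the 2 lowest and a fixed set of core subunits and isoforms, and for each list the 2 genes with the smallest unadjusted p. Ndufs5, Ndufv2, Ndufa12, Atp5j and the genes of other cell types were named after their values were seen. Near copies were searched among annotated transcripts with blastn 2.17.0, using 1 transcript of each member. Coordinates and promoters are RefSeq GRCm38.p6. Python 3.11.15 with pandas 2.3.3 and matplotlib 3.10.9 was used for the rest. Alternatives tried were no trend, a replicate block, quantile normalization, median-of-ratios rescaling, pseudocounts of 0.5 and 0.1, no minimum level or one of 5 FPKM, each library left out and, added after seeing the data, complexes by name alone.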

Additional observations from a re-analysis of the deposited data

How the results depend on the processing

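No alternative gave a member an adjusted p under 0.05. Over all genes limma gave 0 such calls in the main fit and 0 to 6 when a library was left out, the most without CTLA4-Ig replicate 3, and the cause was not tested. The 2 members higher at an unadjusted p under 0.05 went to 0 under quantile normalization, 1 without the trend and 0 to 2 when a library was left out. The 2 lower went to 1 with a mean of at least 5 FPKM, 4 under quantile normalization, 0 without the trend and 0 to 2 when a library was left out. With the replicate number as a block, 0 were higher and 1 lower. Libraries with the same number did not deviate together (correlations -0.154, -0.094 and -0.023 for numbers 1, 2 and 3). With 3 libraries per group these values cannot settle whether the numbers pair libraries, which the labels do not say.

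Leaving out a library moved the median of complex III between -0.102 and -0.019 and that of complex V between -0.072 and -0.024. Without CTLA4-Ig replicate 2 the median of complex I was 0.018 and without control replicate 1 it was 0.0063, against -0.0083 with all libraries. That of complex IV was 0.026 and 0.041 in these fits. Of 57 named genes 18 turned direction under at least 1 alternative, in 34 of 795 fits, and the cause was not tested. Under rescaling, Cox4i1 turned to 0.000047 (median of ratios) and 0.0078 (quantile normalization), and quantile normalization gave -0.026 in Cox7a1, -0.0019 in Uqcrc1 and -0.012 in Cox7a2. When a library was left out, the log2 fold change ran from -0.027 to 0.039 in Ndufs1, -0.024 to 0.11 in Ndufa11, -0.070 to 0.088 in Ndufv1, -0.066 to 0.0092 in Sdhd, -0.096 to 0.012 in Uqcrh, -0.030 to 0.038 in Uqcrc2, -0.042 to 0.041 in Cox4i1, -0.074 to 0.078 in Cox8a, -0.041 to 0.067 in Cox5b and -0.095 to 0.90 in Cox6a2. It ran from -0.48 to 0.27 in Cox7a1, -0.024 to 0.053 in Cox7a2, -0.13 to 0.058 in Cox7a2l, -0.093 to 0.055 in Atp5d, -0.051 to 0.024 in Atp5g2, -0.096 to 0.0028 in Atp5sl and -0.24 to 0.028 in Atp5s.

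With 3 libraries per group and no read numbers, differences under about 0.163 on the log2 scale lie within the interval of the median member. Of all alternatives, the rescalings moved the median of all genes by less than 0.1, from -0.0063 to -0.0053 and -0.012. Low members (Cox7a1, Atp5s and Ndufa11) rest on few fragments, as does Cox6a2 in its lowest library, at about 37.4.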
